A study of Mus musculus with 18 samples.

Results

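The comparison set neurons against proliferating progenitors (PP), the first and last cell populations of a sort of the embryonic mouse cortex. Its members are 6 of the 9 sequenced libraries, 3 labelled Neuron (L224, L357 and L395) and 3 labelled PP (L222, L355 and L393). They were taken by the population named in the sample labels, and the other 3 libraries hold differentiating progenitors (DP), which lie between them in the lineage.

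All libraries came from the lateral cortex of C57BL/6 mouse embryos at embryonic day 14.5. Their genotype is given as Btg2GFP/Tubb3GFP, a pair of fluorescent reporters, one under Btg2 and one under Tubb3, and every group carries both. PP cells are labelled Btg2 negative and come from the fraction titled RFPminus, and Neuron cells come from the fraction titled GFPplus, so the genotype label names GFP for both reporters while the titles name the Btg2 fractions by RFP. Meninges and ganglionic eminences had been taken off, each library pooled sorted cells of more than 3 embryos from different litters, and poly-A RNA was copied from random primers. Sample titles give each library a replicate number, and the same numbers recur in PP and Neuron. No label says that libraries of like number were made from the same embryos.

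Cortical neurons arise from radial glia, elongated cells that divide at the ventricle and are kept as progenitors by Notch signalling. A dividing radial glial cell can renew itself, give off an intermediate progenitor or give off a neuron directly. Newborn neurons leave the cell cycle, migrate outwards, grow an axon and take on the identity of a cortical layer. Btg2 is an antiproliferative gene switched on in progenitors that are about to produce neurons, and Tubb3 encodes a tubulin of young neurons.

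The 6 libraries held 34337209 to 55935128 gene counts, where a library's single-read and paired-end runs were added. Mitochondrially encoded genes took 1.14% to 1.16% of counts in PP and 1.35% to 1.42% in Neuron libraries. Levels are given as CPM, a count divided by its library's total after that total was corrected by the trimmed mean of M-values, and values follow the order L222, L355, L393 for PP and L224, L357, L395 for Neuron. Red blood cell transcripts stood apart: 7 globin genes summed to 14874, 8181 and 8538 CPM in PP, against 13.7, 13.6 and 16.0 CPM in Neuron. A fold difference between sorted pools cannot tell fewer cells of a type from less RNA per cell.

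The sort genes were read first, and they are not independent of the gate. Tubb3 stood at 120, 82.4 and 61.4 CPM in PP and at 2474, 2588 and 2090 CPM in Neuron, a log2 difference of 4.76 ± 0.24 (standard error). Every Neuron library lay above every PP library. Btg2 went the other way, with 409, 403 and 523 CPM in PP and 169 ± 22.2 CPM in Neuron (mean and SD, n = 3, log2 -1.40 ± 0.18, adjusted p = 2.46e-05). The fraction labelled Btg2 negative therefore held more Btg2 transcript than the neurons did, and less than the DP libraries, whose mean was 888 CPM.

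Levels of the markers Fabp7, Gpr26 and Gabbr2 are a description and no check of the labels. The comparison was chosen with earlier results of these data known. Fabp7, a fatty acid binding protein of radial glia, stood at 732, 731 and 572 CPM in PP and at 21.8, 21.4 and 19.8 CPM in Neuron, 32.3-fold lower (adjusted p = 9.68e-11). Gpr26, an orphan receptor of the brain, stood at 0.242, 0.299 and 0.185 CPM in PP and at 86.1, 100 and 119 CPM in Neuron, 417-fold higher (adjusted p = 7.81e-11). Gabbr2, the signalling subunit of the GABA-B receptor, rested on 6 reads over all PP libraries and on 3526 in Neuron. It stood at 0.0805, 0.0427 and 0.0205 CPM in PP against 25.8, 29.9 and 24.5 CPM in Neuron, the highest log2 difference (9.12 ± 0.26) of any feature whose groups did not overlap and whose higher mean was 10 CPM or more. Gabbr1, which encodes the partner subunit that binds GABA, was already at 144, 144 and 162 CPM in PP and reached 469, 495 and 470 CPM in Neuron. Per kilobase of exon, Gabbr1 was at 19.2 RPKM in PP and 61.3 RPKM in Neuron, while Gabbr2 was at 0.00820 and 4.57 RPKM.

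**Figure D1:**
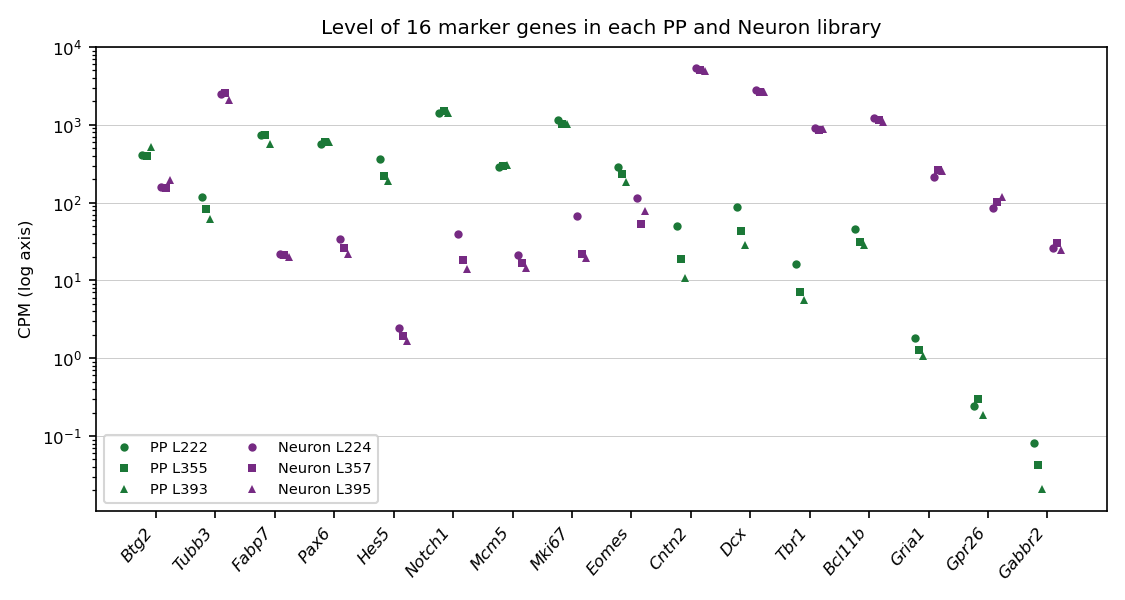
Level of 16 marker genes in each PP (green) and Neuron (purple) library, in CPM on a log axis; each point is 1 library and the shape gives the library. PP and Neuron points do not overlap for any of the genes shown, and Gabbr2 lies under 0.1 CPM in every PP library.

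Most of the transcriptome differed between the ends of this lineage. Of 18627 features tested, 14035 passed edgeR's quasi-likelihood test at a Benjamini-Hochberg adjusted p of 0.05, or 75.3%. Of these, 6839 were higher in Neuron (36.7% of those tested) and 7196 were lower (38.6%). At least 2-fold differences were found for 3734 higher features (20.0%) and 4223 lower ones (22.7%), and the median log2 difference over all features was -0.04. Folds of at least 16 were reached by 795 features on the Neuron side and 915 on the PP side, and folds of at least 128 by 145 and 112. The PP and Neuron libraries did not overlap for 13825 of the called features and overlapped for 210. Of all features tested, called or not, 14634 (78.6%) did not overlap. With library sizes taken as total counts, without a composition factor, the split moved to 5150 higher and 9545 lower, 35.0% of calls higher instead of 48.7%, and the median shifted to -0.35.

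**Figure D2:**
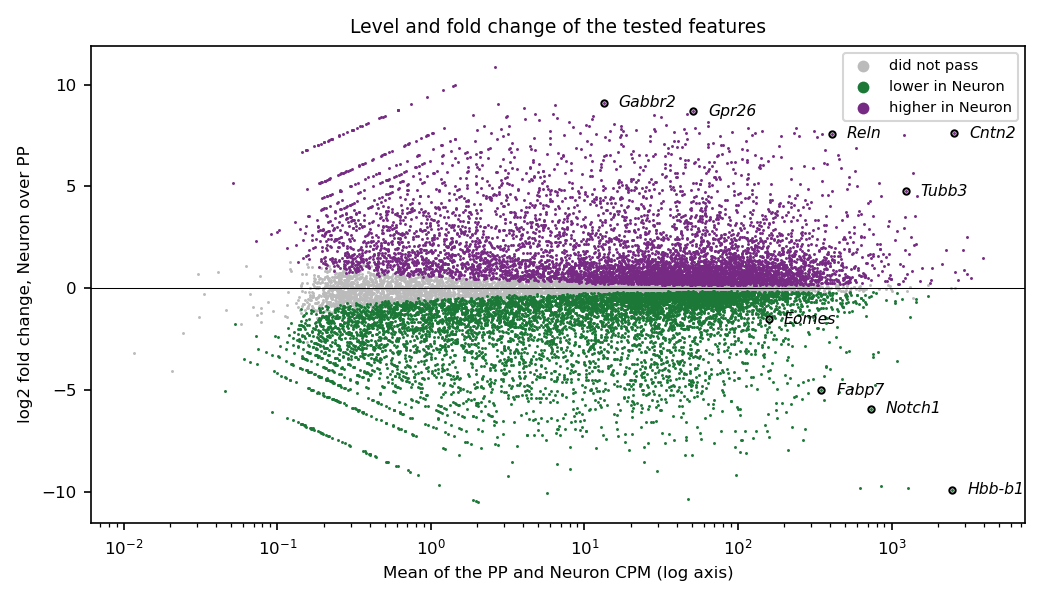
Mean of the PP and Neuron CPM (log axis) against the log2 fold change of Neuron over PP for the tested features, coloured by call; 9 genes are named. Fold changes reach past 8 on the log2 scale on both sides, with Gabbr2 and Gpr26 at the top and Hbb-b1 at the bottom right, and the slanted rows at the far left are features with few reads.

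All 30 radial glia genes tested were lower in Neuron, with a median log2 difference of -4.74 against -0.04 over all features. Pax6, the transcription factor that specifies cortical progenitors, stood at 573, 594 and 610 CPM in PP and at 34.2, 25.9 and 22.0 CPM in Neuron, 21.7-fold lower (adjusted p = 1.93e-10). Sox2, which keeps neural progenitors undifferentiated, stood at 386 ± 19.1 CPM in PP and at 37.3 ± 9.02 CPM in Neuron (SD, n = 3 each), 10.3-fold lower (adjusted p = 1.80e-09). Both were lowest in library L395 and highest in L224 among the neurons, and no Neuron library came near a PP library. Vim, the intermediate filament of radial glia, was 11.7-fold lower, and Slc1a3, a glial glutamate transporter, 21.1-fold lower. The largest differences of the list were in Ednrb, the endothelin B receptor (214, 213 and 188 CPM in PP, 0.773, 1.02 and 0.489 CPM in Neuron), Zfp36l1, an RNA-binding protein that promotes mRNA decay (log2 -7.94 ± 0.19), and Pdpn, a membrane glycoprotein (log2 -7.43 ± 0.20). Per kilobase, Vim (855 RPKM) and Fabp7 (543 RPKM) were far above Pax6 (29.9 RPKM) in PP, and the 3 remained at 72.9, 16.8 and 1.38 RPKM in Neuron.

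Of the 15 features with the lowest log2 differences, 7 were red blood cell genes. Among the other 8 were Mlc1, an astroglial membrane protein (94.7, 90.3 and 86.0 CPM in PP, 0.421, 0.264 and 0.232 CPM in Neuron), Acsbg1, an acyl-CoA synthetase of glia (log2 -8.52 ± 0.34), and S1pr1, a sphingosine-1-phosphate receptor (log2 -8.17 ± 0.17). Plce1, a phospholipase C, was at 215 to 233 CPM in PP and at 0.679, 0.996 and 0.798 CPM in Neuron. The transcripts Gm17591 and C230030N03Rik, the latter 1 of 2 entries of that name, stood at 53.6, 52.9 and 70.7 CPM and at 17.8, 16.1 and 14.0 CPM in PP, and both were under 0.15 CPM in every Neuron library. Gm17591 lies wholly within Zfp36l1 on the opposite strand, and as the use of strand in the counting is not stated, its reads cannot be told apart from those of Zfp36l1.

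At the other end, the 15 features with the highest log2 differences included Gabbr2 and Gpr26. March4, a ubiquitin ligase of membrane proteins, stood at 0.242, 0.192 and 0.308 CPM in PP and at 88.8, 99.8 and 91.3 CPM in Neuron (log2 8.54 ± 0.13). Glra2, a glycine receptor subunit of embryonic neurons, stood at 0.242, 0.171 and 0.0616 CPM in PP and at 50.2, 58.2 and 60.5 CPM in Neuron (log2 8.51 ± 0.24). Zfp804a, a zinc finger gene, the cadherin Cdh12 and Rasgrf1, an activator of Ras, reached 20.6 to 24.4, 9.50 to 17.5 and 18.6 to 24.0 CPM in Neuron from 0 to 0.161 CPM in the PP libraries. Drd1a, a dopamine receptor, rested on 4 PP reads, and Galnt9, a glycosyltransferase, on 3, while both were at 10 CPM or more in every Neuron library.

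Of 30 Notch pathway genes tested, 19 were lower in Neuron, 7 were higher and 4 did not pass. Thus 86.7% were called, against 75.3% of all features, with a median log2 difference of -0.96. The receptors were on the PP side: Notch1 stood at 1417, 1524 and 1401 CPM in PP and at 39.3, 18.3 and 14.1 CPM in Neuron, 60.5-fold lower (adjusted p = 1.64e-08). Notch2 was 33.8-fold lower and Notch3 111-fold lower. The targets Hes5 and Hes1, repressors that block neuronal genes, stood at 258 ± 93.3 CPM (SD, n = 3, highest in L222) and at 98.5, 114 and 132 CPM in PP, against 2.46, 1.91 and 1.67 CPM and 0.702, 0.752 and 0.541 CPM in Neuron. Lfng, which adds sugars to Notch and changes its response to ligands, was 196-fold lower (139, 144 and 137 CPM in PP). No receptor or target library of the neurons came within 10-fold of a PP library.

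Dll1, the main Notch ligand of cortical progenitors, was at 186, 190 and 180 CPM in PP and at 246, 186 and 199 CPM in Neuron, where the groups overlapped (log2 0.18 ± 0.10, adjusted p = 0.114). Without Neuron library L357, Dll1 was called higher (log2 0.27, adjusted p = 0.0318). The other 3 genes that did not pass, named after their values were seen, were Dll4, Rbpj and Mib1, the last an enzyme that makes ligands active. The higher genes included Dtx1 (20.4, 18.9 and 15.6 CPM in PP, 240, 240 and 207 CPM in Neuron), Dner (16.6, 16.4 and 13.8 CPM in PP, 161 ± 4.25 CPM in Neuron, SD, n = 3) and, named after their values were seen, Jag2, Dll3, Rfng and Numbl. Jag2 and Dll3 are ligands of the family, and their log2 differences were 2.50 and 1.67. Rfng, a relative of Lfng that acts on the same receptors, thus differed in the opposite direction from it.

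Cell cycle transcripts were lower in Neuron for nearly all members. All 47 genes of S phase and DNA replication were lower (median log2 -3.03), and so were 57 of 58 genes of G2 and M phase (median -4.38). The exception, named after its value was seen, was the ubiquitin ligase G2e3 at 149 CPM in PP and 138 CPM in Neuron (means). Mki67, a protein of dividing cells, stood at 1155, 1026 and 1031 CPM in PP and at 66.3, 21.6 and 19.4 CPM in Neuron (log2 -4.90 ± 0.43, adjusted p = 6.99e-07). Top2a, the topoisomerase that untangles replicated chromosomes, stood at 535, 543 and 570 CPM in PP and at 44.7, 14.7 and 12.3 CPM in Neuron. Neuron library L224 was about 3-fold above the other neurons for both genes, and still over 10-fold below the PP libraries.

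The 6 subunits of the replicative helicase did not fall by like amounts. Mcm3 was 71.5-fold lower (322, 296 and 309 CPM in PP, 7.16, 3.25 and 2.52 CPM in Neuron), while Mcm7 was 2.73-fold lower (289, 267 and 294 CPM in PP, 104, 103 and 104 CPM in Neuron). The remaining subunits, Mcm2, Mcm4, Mcm5 and Mcm6, had log2 differences from -4.08 to -3.20. Mcm5 stood at 283, 293 and 307 CPM in PP and at 21.0, 16.9 and 14.3 CPM in Neuron. Pcna, the clamp that holds the polymerase on DNA, kept 25.0, 20.0 and 19.9 CPM in Neuron after 194, 184 and 176 CPM in PP. Tk1, the thymidine kinase of S phase, and Mcm10, which helps to start replication, had log2 differences of -5.80 ± 0.27 and -5.45 ± 0.27.

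The promoters of these genes are shown because members of a cell cycle list moved together. RefSeq promoters (build GRCm38.p6, 250 bases before to 50 after each start) were searched on both strands for words known from cell cycle promoters. These were the E2F words TTTCGCGC, TTTGGCGC and TTTCCCGC, the CHR word TTTGAA (the cell cycle homology region of late cell cycle genes) and CCAAT, and words may overlap. The 5 stretches below run 5′ to 3′ on the gene's strand, each 120 bases upstream of the start, with E2F words of Mcm5 (chr8:75109300-75109419, plus strand) and Mcm6 (chr1:128359752-128359871, minus strand) and CHR words of Mki67 (chr7:135716433-135716552, minus strand), Top2a (chr11:99024306-99024425, minus strand) and Cdk1 (chr10:69352921-69353040, minus strand) in capitals.
Mcm5: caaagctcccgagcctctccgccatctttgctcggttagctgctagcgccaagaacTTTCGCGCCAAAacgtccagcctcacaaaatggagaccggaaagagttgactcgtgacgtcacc
Mcm6: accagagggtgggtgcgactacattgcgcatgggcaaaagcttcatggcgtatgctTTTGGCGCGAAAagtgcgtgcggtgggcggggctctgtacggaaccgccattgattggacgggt
Mki67: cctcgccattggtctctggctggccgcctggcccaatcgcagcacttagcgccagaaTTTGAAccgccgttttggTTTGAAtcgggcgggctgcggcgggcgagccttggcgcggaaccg
Top2a: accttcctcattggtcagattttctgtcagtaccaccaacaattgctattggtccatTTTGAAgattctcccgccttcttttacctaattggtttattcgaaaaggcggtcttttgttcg
Cdk1: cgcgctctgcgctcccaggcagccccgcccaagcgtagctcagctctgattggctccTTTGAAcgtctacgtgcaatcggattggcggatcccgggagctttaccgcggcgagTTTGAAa

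In the G2 and M phase list, 50 of 58 genes had an entry, and 37 of their 56 promoters (66.1%) held the CHR word, against 5878 of 32851 promoters in the whole table (17.9%). CCAAT was in 45 of the 56 (80.4%) against 37.4% of all promoters, and an E2F word in 5 (8.93%) against 1.84%. The whole table also holds promoters of genes not tested here. Of tested protein-coding genes called at under 2-fold, 80.1% had an entry. Their promoters held the CHR word in 11.0%, CCAAT in 37.8% and an E2F word in 3.55%. Of 30 radial glia genes, 28 had an entry, and 4 of their 35 promoters (11.4%) held the CHR word. No E2F word was found in the promoters of Pcna and Mcm2 or in 1 of the 2 promoters of Mcm7. The promoters of Ccnb1 and Bub1, both G2 and M phase genes, had no CHR word in this window. For the S phase list 37 of 47 genes had an entry, which is under 80%, so its share is void, and the same holds for the genes called at least 2-fold in either direction. Cdk1, the kinase that drives entry into mitosis, stood at 71.1, 78.8 and 85.6 CPM in PP and at 4.24, 1.73 and 1.39 CPM in Neuron. A match of letters is a description of the sequence and was not tied to any factor.

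Regulators of G1 differed in both directions. Of 26 tested, 20 were lower, 5 were higher and 1, Mycn, did not pass (96.2% called, against 75.3% of all features). Ccnd1, a cyclin that drives the exit from G1, stood at 176 ± 30.0 CPM (SD, n = 3) in PP and at 3.32, 3.64 and 4.22 CPM in Neuron (log2 -5.56 ± 0.14). Its relative Ccnd2 kept 237, 149 and 118 CPM in Neuron after 1602, 1502 and 1314 CPM in PP, 8.75-fold lower. The inhibitor Cdkn1c stood at 11.2, 8.76 and 8.24 CPM in PP and at 126, 97.9 and 114 CPM in Neuron, 12.1-fold higher (adjusted p = 2.78e-10). Another inhibitor, Cdkn1b, differed by log2 -0.18 only, and Cdk4, the kinase partner of D cyclins, by -0.21, and both passed the test (adjusted p = 0.0193 and 0.0130). Cdk4 no longer passed without PP library L222 (adjusted p = 0.0571) or Neuron library L357 (0.0709), and Cdkn1b without PP library L355 (0.0785) or Neuron library L357 (0.0777) or L395 (0.0621). The other higher genes were Myc (log2 2.42) and, named after their values were seen, Cdkn1a, Rb1 and Cdkn2d.

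Genes of intermediate progenitors, the transit population between these ends, were not on one side. Of 28 tested, 17 were higher, 8 were lower and 3 did not pass (89.3% called, against 75.3% of all features). Eomes, the defining transcription factor of intermediate progenitors, stood at 287, 232 and 186 CPM in PP and at 114, 53.4 and 77.6 CPM in Neuron (log2 -1.52 ± 0.24), and the DP mean was 1162 CPM. Neurog2, which drives neurogenesis, was 6.68-fold lower in Neuron, with 368 ± 33.7 CPM in PP (SD, n = 3). Neurog1, its close relative, fell further, from 20.6, 18.8 and 17.3 CPM to 0.609, 0.345 and 0.335 CPM. Insm1, a zinc finger gene of dividing neuronal precursors, was slightly higher in Neuron (135, 153 and 121 CPM in PP, 182, 209 and 194 CPM in Neuron). The Insm1 difference was log2 0.52 ± 0.12, and with total-count library sizes it was 0.21 and did not pass (adjusted p = 0.100). Celsr3, a cadherin needed for axon tracts, Slc17a6, a vesicular glutamate transporter, and Nhlh1, a neuronal transcription factor, were higher by log2 5.11, 4.19 and 3.93.

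All 32 genes of neuronal cytoskeleton and identity were higher in Neuron, with a median log2 difference of 3.90. Dcx, a microtubule protein of migrating neurons, stood at 88.4, 42.6 and 28.3 CPM in PP and at 2794, 2622 and 2651 CPM in Neuron, 50.8-fold higher (adjusted p = 5.06e-08). Mapt, the axonal protein tau, was at 13.5, 9.97 and 6.62 CPM in PP and at 1069, 1262 and 1166 CPM in Neuron, 117-fold higher. Mtap2, the dendritic counterpart of tau, was 7.69-fold higher only, from 284, 300 and 254 CPM. PP library L222 was the highest of its group for Tubb3, Dcx and Mapt, and the part of sorted neurons in it was not tested. The largest folds of the list were in Ina, a neuronal intermediate filament (log2 7.55 ± 0.19), Stmn2, a regulator of microtubules in growing axons (log2 7.48 ± 0.34), and Myt1l, a repressor of non-neuronal genes (log2 7.43 ± 0.43). Per kilobase, Tubb3 (1276 RPKM) was above Dcx (213 RPKM) and Mtap2 (131 RPKM) in Neuron, whereas in PP Mtap2 (17.0 RPKM) was above Mapt (1.33 RPKM).

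Layer identity genes were mostly higher, 21 of 28, and 7 were lower (100% called, against 75.3% of all features). Tbr1, the transcription factor of layer 6 neurons, stood at 16.3, 7.09 and 5.59 CPM in PP and at 905, 851 and 890 CPM in Neuron, 92.5-fold higher. Bcl11b, which specifies layer 5 neurons, stood at 46.4, 30.8 and 28.4 CPM in PP and at 1208, 1160 and 1089 CPM in Neuron, 32.8-fold higher. Fezf2, a regulator of deep layer neurons that radial glia also carry, rose less, from 97.5, 114 and 123 CPM to a mean of 358 CPM. The upper layer genes Cux2 and Cux1 differed in opposite directions, Cux2 by log2 2.84 ± 0.15 and Cux1 by -1.08 ± 0.12. Ctgf and Bhlhe40 were the lowest of the list (log2 -6.94 and -4.69), and Pou3f2, Pou3f3, Nr4a2 and Etv1 were also lower.

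**Figure D3:**
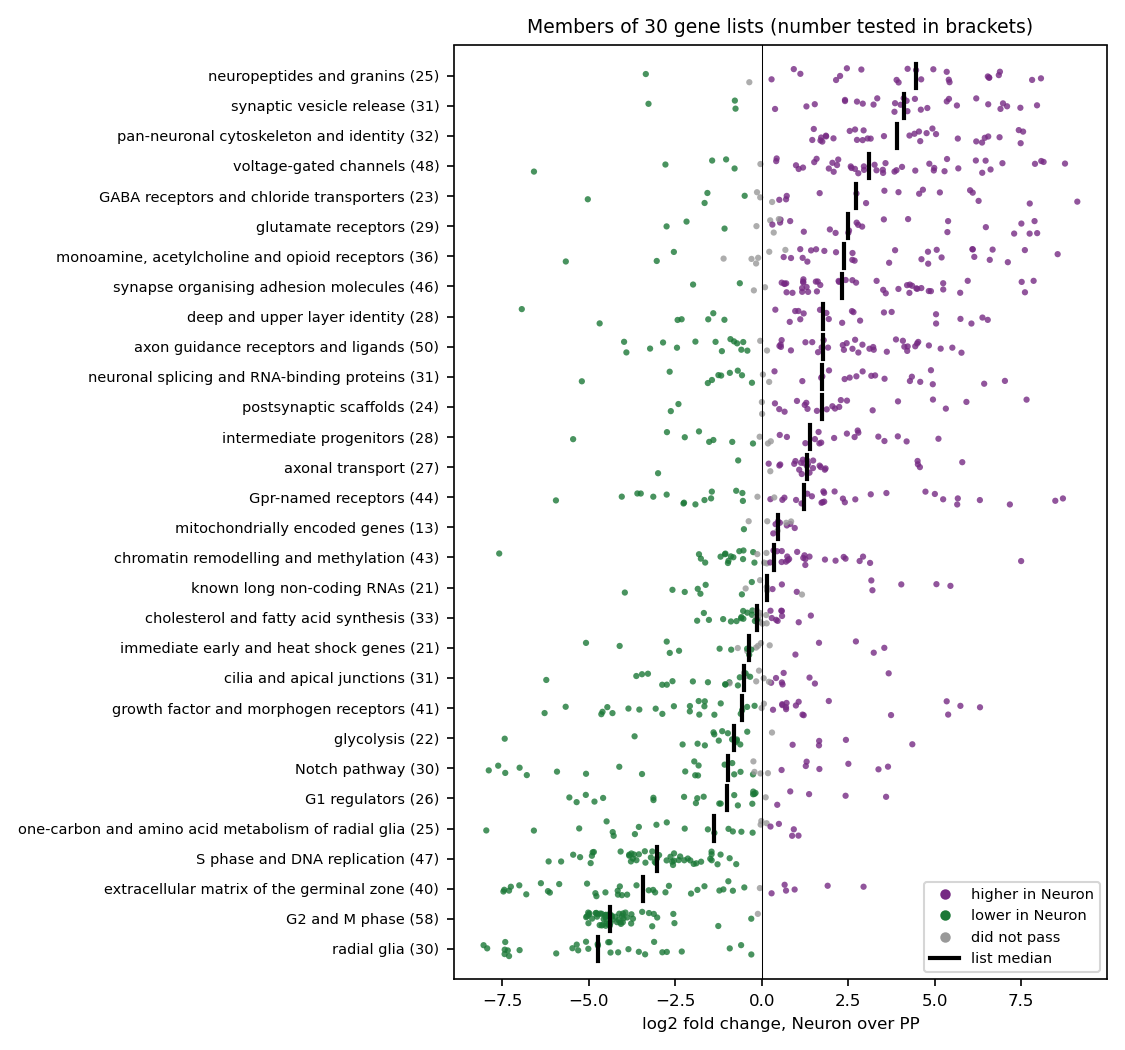
Log2 fold change of Neuron over PP for each tested member of 30 gene lists, ordered by the list median (black bar); purple points were higher in Neuron, green points lower and grey points did not pass. Radial glia and G2 and M phase lie farthest to the left and neuropeptides and granins farthest to the right, while cholesterol synthesis and long non-coding RNAs sit near 0.

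Axon guidance genes were higher for 34 of 50 tested and lower for 14 (96.0% called, against 75.3% of all features). The median log2 difference was 1.76. The receptors Dcc, which reads netrin, Robo1 and Robo2, which read Slit proteins, and Nrp1, which reads semaphorins, were each higher by log2 4.12 to 4.52. Plxna4, a semaphorin receptor, stood at 39.5, 15.1 and 8.59 CPM in PP and at 1434, 1014 and 976 CPM in Neuron. Epha5, an ephrin receptor already at 220, 209 and 192 CPM in PP, rose by log2 1.26 only. Sema5a, a semaphorin with a membrane anchor, went the other way (838, 752 and 661 CPM in PP, 61.5, 41.2 and 40.0 CPM in Neuron), as did the secreted Ntn4 (log2 -3.91 ± 0.15). The 2 genes that did not pass, named after their values were seen, were Sema6a and Efna5.

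Adhesion molecules that organise synapses were higher for 42 of 46 tested (95.7% called, against 75.3% of all features). Cntn2, an axonal adhesion protein also called TAG-1, reached 5368, 5040 and 4934 CPM in Neuron from 49.7, 18.9 and 10.7 CPM in PP (log2 7.61 ± 0.52, adjusted p = 7.64e-08). Per kilobase, Cntn2 stood at 536 RPKM in Neuron. Lrfn5 (log2 7.86 ± 0.16) and Slitrk1 (5.95 ± 0.20), both leucine-rich synaptic proteins, were higher too, and the neurexin Nrxn3 rose by 5.24. The neurexin partner Nlgn1 rose by 1.17 only, from 23.5, 24.3 and 22.9 CPM to 50.1, 53.8 and 54.7 CPM. The 2 lower genes were Ptprf (log2 -0.63), a receptor phosphatase, and Cntn6 (log2 -1.99), and Cntn3 and Cadm2 did not pass, the last 3 named after their values were seen.

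Genes of vesicle release were higher for 28 of 31 tested (100% called, against 75.3% of all features), with a median log2 difference of 4.10. Syt1, the calcium sensor of release, stood at 2.04, 1.54 and 1.23 CPM in PP and at 148 ± 6.51 CPM (SD, n = 3) in Neuron (log2 6.54 ± 0.14). Snap25, a fusion protein of the presynaptic membrane, stood at 4.08, 2.14 and 1.66 CPM in PP and at 174, 200 and 190 CPM in Neuron (log2 6.20 ± 0.27). Sncb, Rph3a and Sv2b, all vesicle proteins, had the largest folds of the list (log2 7.96, 7.47 and 7.09). Syt13 and Vamp1 were lower (log2 -3.27 and -0.78), and so was Syt11, named after its value was seen, at a mean of 855 CPM in PP and 506 CPM in Neuron.

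Glutamate receptor genes were higher for 22 of 29 tested and lower for 3 (86.2% called, against 75.3% of all features). Among AMPA receptor subunits, which carry fast excitation, Gria1 stood at 1.80, 1.26 and 1.07 CPM in PP and at 216, 265 and 256 CPM in Neuron, 181-fold higher. Gria2, the subunit that blocks calcium entry, was 5.66-fold higher, and PP libraries already held 182, 196 and 218 CPM. Per kilobase, Gria2 was at 28.6 RPKM in PP where Gria1 was at 0.228 RPKM, and in Neuron they were at 162 and 40.6 RPKM. The NMDA receptor subunits Grin1 and Grin2b rose by log2 5.38 and 4.23, the kainate subunit Grik3 by 7.88 and the metabotropic receptor Grm5 by 7.29. The 3 lower genes, Grin2c, Grm8 and Cacng5, and, among those that did not pass, Grik1, Grik2 and Grik4 were named after their values were seen.

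GABA receptors and chloride transporters were higher for 16 of 23 tested (87.0% called, against 75.3% of all features). Gabrb2, a subunit of the GABA-A channel, rose by log2 4.66, and Gabre, another subunit, fell by 5.03 on the log2 scale (10.3, 10.4 and 14.8 CPM in PP). The chloride pump of mature neurons, Slc12a5, stood at 9.10, 8.41 and 11.1 CPM in PP and at 13.7, 17.6 and 15.8 CPM in Neuron, and the chloride importer of immature cells, Slc12a2, at 106, 107 and 98.5 CPM and at 69.9, 76.0 and 75.7 CPM. The Slc12a5 and Slc12a2 differences were small (log2 0.72 and -0.49) and neither pair of groups overlapped.

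Postsynaptic scaffolds were higher for 20 of 24 tested (91.7% called, against 75.3% of all features), and the CaM kinase family was split. Camk2b stood at 1.21, 0.876 and 0.678 CPM in PP and at 148, 208 and 190 CPM in Neuron (log2 7.65 ± 0.21). Camk2a, the best known kinase of adult excitatory synapses, was instead at 75.1, 73.2 and 69.5 CPM in PP and at 15.7, 13.2 and 12.2 CPM in Neuron (log2 -2.41 ± 0.13, adjusted p = 9.03e-09), and its DP mean was 15.4 CPM. Camk2d was lower too (log2 -2.63 ± 0.10), and these were the 2 lower genes of the list. The scaffolds Shank1 and Dlg4 rose by log2 3.94 and 2.04, Dlg4 from 81.3, 92.1 and 94.0 CPM. Homer3 and Ppp1r9a, named after their values were seen, did not pass.

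Voltage-gated channel genes were higher for 42 of 48 tested (97.9% called, against 75.3% of all features), with a median log2 difference of 3.11. Kcnh3 and Kcna1, potassium channel subunits, stood under 0.6 CPM in every PP library and at 58.1, 63.4 and 68.5 CPM and 131, 123 and 127 CPM in Neuron. The sodium channel genes Scn3a, Scn2a1 and Scn8a rose by log2 6.19, 4.98 and 2.04, and the calcium channel gene Cacna1e by 6.47. Kcnj10, a potassium channel of glia, was the lowest of the list, at 91.0, 104 and 75.7 CPM in PP and 1.19, 0.935 and 0.670 CPM in Neuron.

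Among receptors named Gpr, 27 of 44 were higher and 15 were lower (95.5% called, against 75.3% of all features). Gpr22 and Gpr85 rose by log2 8.48 and 5.65, and Gpr98, a very large adhesion receptor, fell by 5.95 on the log2 scale from 197, 205 and 190 CPM. Gpr56, an adhesion receptor needed for the cortical surface, was lower by 0.56 on a level of 490, 498 and 481 CPM in PP. Gpr6 had no read in any PP library and 53 in Neuron, where it stood at 0.492, 0.427 and 0.283 CPM. Of neuropeptides and granins, 23 of 25 were higher (96.0% called, against 75.3% of all features). Chgb and Chga, granule proteins, reached 75.9, 75.3 and 65.4 CPM and 158, 136 and 127 CPM. Npy, with 3 reads over all PP libraries, stood at 5.41, 5.93 and 5.74 CPM in Neuron. Monoamine, acetylcholine and opioid receptors were higher for 27 of 36 tested (83.3% called, against 75.3% of all features). Among them were the cannabinoid receptor Cnr1 (9.85, 10.7 and 9.80 CPM in PP, 708, 678 and 760 CPM in Neuron) and the adenosine receptor Adora1 (log2 6.59 ± 0.19). This last list held 44 genes, the Gpr list 51 and the list of neuropeptides and granins 27. In each list, a gene near 0 CPM in PP could pass the expression filter through Neuron reads alone. Over the alternatives, the count of higher Gpr receptors ran from 21 to 29, and of higher neuropeptides and granins from 16 to 24. For the monoamine, acetylcholine and opioid receptors it ran from 21 to 32.

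Transport along axons was higher for 24 of 27 genes (96.3% called, against 75.3% of all features), with a smaller median (log2 1.30). Kif5a rose 4.57 on the log2 scale, while its relative Kif5c, already at 344 ± 26.7 CPM (SD, n = 3) in PP, rose 1.67, and Kif1a, the motor of vesicle precursors, 1.48. Hap1 and Kif21a were the 2 lower genes (log2 -3.00 and -0.68), whereas Kif21b, the close relative of Kif21a, rose from 186, 104 and 76.8 CPM to 3198, 2658 and 2520 CPM. The 1 gene that did not pass, named after its value was seen, was Bicd2.

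Extracellular matrix genes of the germinal zone were lower for 33 of 40 tested (97.5% called, against 75.3% of all features). Their median log2 difference was -3.44. Tnc, the glycoprotein tenascin C, stood at 330, 375 and 251 CPM in PP and at 1.92, 2.44 and 1.62 CPM in Neuron, and Lamb2, a laminin chain, at 193, 200 and 229 CPM and at 0.983, 1.22 and 1.31 CPM. Lamb1, another laminin chain, went the other way (log2 2.94 ± 0.23), as did the proteoglycan Vcan (log2 1.90). The collagens Col4a1, Col4a2 and Col1a2 varied among PP libraries, Col4a1 at 24.7, 43.2 and 97.3 CPM, and were highest in L393, the PP library with the most fibroblast transcripts (182 CPM summed, against 82.2 and 118). Col1a2 is itself a member of the fibroblast list, so its level is part of that sum. The part of fibroblasts in the collagen values was not tested.

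Growth factor and morphogen receptors were lower for 23 of 41 and higher for 16. The share called was 95.1%, against 75.3% of all features. Fgfr3 and Fgfr2, receptors for fibroblast growth factors, were lower by log2 -3.85 and -2.87, Fgfr3 from 610, 705 and 779 CPM to 47.5, 50.1 and 47.3 CPM, and Fgfr1 by -0.61. In the ErbB family, Erbb2 stood at 68.6, 76.3 and 78.5 CPM in PP and at 1.01, 0.853 and 1.03 CPM in Neuron. Erbb4, which binds neuregulins, stood at 1.88, 0.876 and 0.883 CPM in PP and at 75.3, 102 and 102 CPM in Neuron. Egfr, the first member of the family, was lower too, at 3.54, 2.35 and 2.30 CPM in PP and 0.117, 0.142 and 0.0515 CPM in Neuron. Fzd8, a Wnt receptor, and Lrp4 were lower by log2 -4.60 and -5.67, and Ngfr, a neurotrophin receptor, was higher by 5.39.

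Genes of cilia and apical junctions were lower for 16 of 31 and higher for 8, and the share called (77.4%) was near the 75.3% of all features. Crb2, a polarity protein of the ventricular surface, stood at 180, 206 and 225 CPM in PP and at 3.00, 2.38 and 2.81 CPM in Neuron. Prkcz, which encodes an atypical protein kinase C, was higher by log2 3.67, and Ctnnb1, the junction and Wnt protein beta-catenin, was lower by 0.69 from 1834, 1878 and 1608 CPM. Cdh2, the N-cadherin of both cell types, was at 485, 480 and 410 CPM in PP and at 470, 453 and 378 CPM in Neuron and did not pass (adjusted p = 0.551), though with total-count library sizes it was called lower (log2 -0.39, adjusted p = 0.00511).

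The glycolysis list held 22 tested genes, of which 16 were lower in Neuron and 5 higher (95.5% called, against 75.3% of all features). Aldoc, the glial aldolase, stood at 535, 600 and 449 CPM in PP and at 2.95, 3.58 and 2.60 CPM in Neuron, 172-fold lower, while the widespread Aldoa was lower by log2 -0.72. Hk2, a hexokinase of growing cells, was lower (log2 -2.29) and Hk1, named after its value was seen, was higher (1.65). Pfkp rose from 8.08, 7.26 and 8.55 CPM to 163 ± 16.3 CPM (SD, n = 3), and Pfkl was lower (log2 -0.77). Eno2, the neuronal enolase, rose by log2 2.43. Of 25 genes of one-carbon and amino acid metabolism, 17 were lower and 5 were higher (88.0% called, against 75.3% of all features). Phgdh and Psat1, the first steps of serine synthesis, were lower by log2 -5.28 and -4.28, and the folate enzyme Aldh1l1 by -7.96, while Asns, which makes asparagine, was higher by 0.93.

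Splicing factors and chromatin remodellers differed by family member. Of 31 neuronal RNA-binding genes, 19 were higher and 10 were lower (93.5% called, against 75.3% of all features). Ptbp1, the repressor of neuronal exons, stood at 467, 475 and 463 CPM in PP and at 179, 149 and 149 CPM in Neuron. Its neuronal paralogue Ptbp2 was at 300, 279 and 272 CPM in PP and at 297, 275 and 299 CPM in Neuron and did not pass (adjusted p = 0.680). With total-count library sizes Ptbp2 was called lower (log2 -0.28, adjusted p = 0.00267). Rbfox1, Rbfox3 and Srrm4, regulators of neuronal exons, rose by log2 7.03, 4.58 and 3.55. In the BAF remodelling complex, Actl6b stood at 1.61, 0.577 and 0.452 CPM in PP and at 151 ± 6.01 CPM (SD, n = 3) in Neuron, and its progenitor counterpart Actl6a at 94.4, 99.7 and 98.6 CPM and at 57.1, 52.1 and 56.6 CPM. The progenitor subunit Phf10 was lower by log2 -0.54 and the neuronal subunits Dpf1 and Ss18l1 were higher by 3.13 and 2.37. Over the whole chromatin list of 43 genes, 23 were higher and 16 were lower (90.7% called, against 75.3% of all features). Hmga2, an architectural protein of young progenitors, was the lowest (71.3, 62.2 and 66.8 CPM in PP, 0.375, 0.345 and 0.309 CPM in Neuron).

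Long non-coding RNAs were the subject of the series. Of 859 tested lincRNAs, 217 were higher in Neuron (25.3%) and 423 were lower (49.2%), and of 452 antisense RNAs 93 were higher (20.6%) and 234 lower (51.8%), against 40.5% and 38.1% of 14718 protein-coding genes. Pseudogenes (1403 tested) were higher for 15.7% and lower for 36.4%, and of 2922 features under 1 CPM of any type 591 were higher and 1116 were lower. Of 484 transcripts assembled by the authors outside the annotation, 206 were higher (42.6%) and 170 lower (35.1%). No source used here states strand-specific counting, and without it reads of an antisense RNA cannot be told apart from those of its partner gene. Among 21 known long non-coding RNAs, 8 were higher, 8 were lower and 5 did not pass. Their share called (76.2%) was near the 75.3% of all features. Meg3 and Rian, from one imprinted locus, rose by log2 4.03 and 3.20, Meg3 from 50.9, 34.7 and 52.6 CPM to 691, 792 and 778 CPM. H19, an imprinted RNA of growing tissue, fell from 80.8, 57.9 and 48.5 CPM to 5.29, 2.93 and 3.86 CPM. Miat stood at 1161, 922 and 1042 CPM in PP and at 2158, 1988 and 2152 CPM in Neuron, below its DP mean of 3837 CPM. Malat1 was called higher by log2 0.31 (adjusted p = 0.0431), but with total-count library sizes it was at -0.0019 (adjusted p = 0.99). Malat1 kept its call without PP library L393 but no longer passed without PP library L222 (adjusted p = 0.151) or L355 (0.102), or without Neuron library L224 (0.0939), L357 (0.0643) or L395 (0.0766).

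Genes with long spans were more often higher in Neuron. Protein-coding genes at least 2-fold higher had a median span of 34.7 kb from start to end, those at least 2-fold lower 24.2 kb, and all tested 23.3 kb. Of 501 genes longer than 300 kb, 56.3% were at least 2-fold higher and 16.8% at least 2-fold lower, while of 3998 genes of up to 10 kb the shares were 17.5% and 20.5%. Exonic length differed less, with medians of 4.13 kb for the higher and 3.53 kb for the lower genes. These shares describe the genes, which are not replicates.

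**Figure D4:**
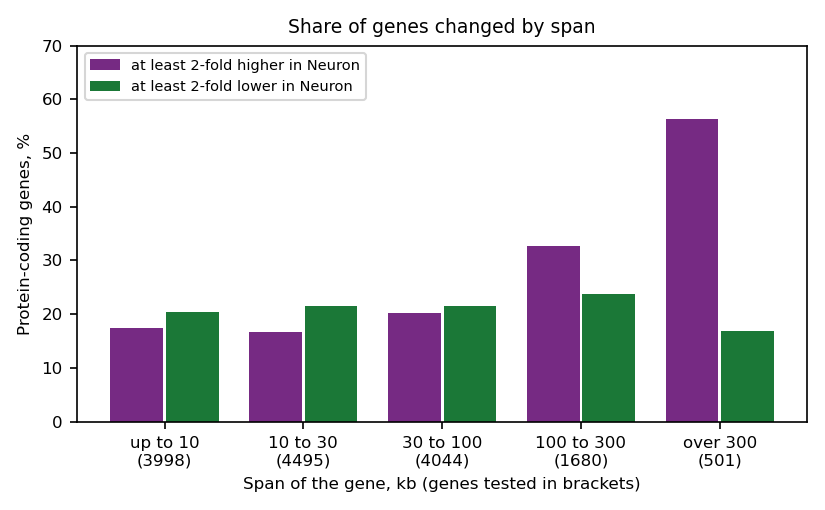
Share of tested protein-coding genes that were at least 2-fold higher (purple) or lower (green) in Neuron than in PP, by the span of the gene in kb. The higher share is 17.5% for genes of up to 10 kb and 56.3% for genes over 300 kb, and the lower share stays between 16.8% and 23.8%.

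Markers of other cell types moved with the comparison. The summed level of 18 red blood cell genes was 8588 to 15664 CPM in PP and 117 to 133 CPM in Neuron, and 17 of the 18 tested were lower. The exception was Hba-x (adjusted p = 0.0549), which was called lower without PP library L355 (0.0288) or L393 (0.0470) or Neuron library L395 (0.00778), and with the library number as a block (0.0297). Hba-x was also called lower without L393 and L395 together (0.00723) and with only the 6 PP and Neuron libraries (0.0436). The same held with upper-quartile factors (0.0473), total-count library sizes (0.0338), no filter beyond 1 read (0.0194) and paired-end counts alone (0.0417). Hbb-b1, an adult beta globin, stood at 6970, 3914 and 4059 CPM in PP and at 6.09, 6.44 and 2.99 CPM in Neuron, and Alas2, the red cell enzyme of haem synthesis, at 271, 134 and 172 CPM and at 0.304, 0.345 and 0.335 CPM. Library L222 was the highest for each of these. Counts of the near-identical pairs Hbb-b1 with Hbb-b2 and Hba-a1 with Hba-a2 could be split between copies by the counting. Endothelial genes were lower for 12 of 14, summing to 41.3 to 64.6 CPM in PP and 29.6 to 34.8 CPM in Neuron. All 15 microglial genes tested were lower, at 28.9 to 33.4 CPM in PP and 10.2 to 12.7 CPM in Neuron, where the defining markers Aif1 and Trem2 were under 0.5 CPM in every library. The 11 pericyte genes summed to 445 to 560 CPM in PP and 6.65 to 7.11 CPM in Neuron, most of it from Notch3, which radial glia also carry.

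On the Neuron side, Cajal-Retzius and preplate genes, which mark the earliest neurons of the cortical surface, summed to 16.7 to 28.2 CPM in PP and 1053 to 1194 CPM in Neuron. Of 14 tested, 13 were higher. Reln, the secreted protein that guides migrating neurons, stood at 5.48, 4.59 and 2.77 CPM in PP and at 850, 845 and 742 CPM in Neuron, 192-fold higher. Genes of ventral progenitors and interneurons, which arise in the ganglionic eminences, were higher for 20 of 28 and summed to 880 to 985 CPM in PP and 2133 to 2179 CPM in Neuron. Among them was Gad1, the main GABA synthesising enzyme, at 1.64, 0.448 and 0.144 CPM in PP and 68.6, 68.6 and 69.6 CPM in Neuron. Lhx6 stood at 1.05, 0.555 and 0.411 CPM in PP and 70.8, 94.1 and 104 CPM in Neuron, and the peptide Sst at 28.9, 24.0 and 40.7 CPM in Neuron. Gad1, Lhx6 and Sst made up a small part of the list's sum in every library, and almost none of it in PP. The sums therefore do not give the size of the difference in these markers. Library L222 held the most Gad1 of the PP libraries. The lower genes included Sox6 (log2 -2.51) and, named after their values were seen, Gsx2 and Sp8. Of 18 striatal genes 13 were higher, but their summed level overlapped, 724 to 760 CPM in PP and 678 to 863 CPM in Neuron. The Neuron libraries thus held transcripts from the interneuron and Cajal-Retzius lists beside those of cortical projection neurons, and their part in the differences of synaptic and channel genes was not tested.

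**Figure D5:**
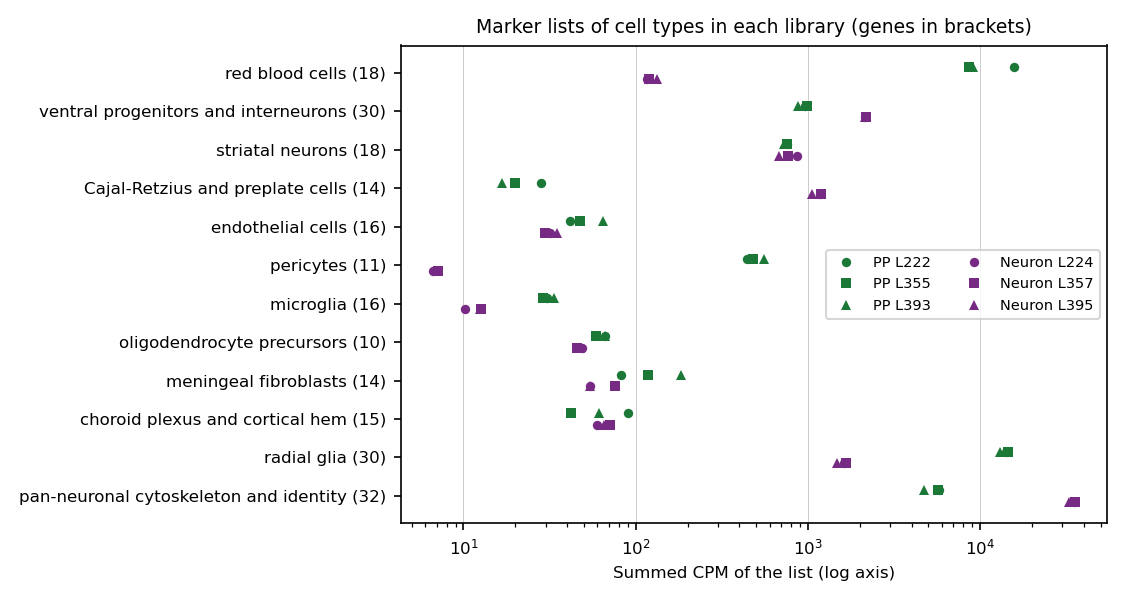
Summed CPM of 12 marker lists in each PP (green) and Neuron (purple) library on a log axis, with the number of genes in brackets. Red blood cell genes lie between 8588 and 15664 CPM in PP and between 117 and 133 CPM in Neuron, Cajal-Retzius genes lie on the Neuron side, and the striatal and choroid plexus lists overlap.

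Some abundant genes had differences near 0. Of 2703 features with at least 100 CPM on average over both groups, 359 lay within 1.1-fold. The smallest differences were in Pias2, Ivd, Phip, Cdk16 and Mkln1, all at 0.00 on the log2 scale to 2 decimals. Phip, an abundant one of these, stood at 362, 403 and 358 CPM in PP and at 359, 380 and 383 CPM in Neuron. With total-count library sizes, which moved the median of all features, Phip was at -0.31 and called lower (adjusted p = 0.00181), and so were the other 4.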

How the data were processed

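Lateral cortex cells of C57BL/6 mouse embryos were sorted into 3 populations, and 3 libraries a population were sequenced as single reads and as read pairs. The deposited tables hold raw gene counts made by the authors for Ensembl genes and unannotated transcripts, with 1 column a library and run, per the file headers. TopHat2 2.0.10, Cufflinks 2.1.1 and featureCounts 1.4.4 and the build mm9 are named in the submitters' processing notes, and their settings are not known from any source read here. The columns carry the population and a library number but no replicate number.

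Here both runs of a library were summed, and Neuron was compared with PP by edgeR 4.0.16's quasi-likelihood test in R 4.3.3. The fit took all 9 libraries, trimmed mean of M-values factors, filterByExpr and group as the only term. P-values were adjusted by Benjamini-Hochberg over 18627 features with a threshold of 0.05. A standard error is the log2 difference over the root of the F statistic. RPKM values are means per kilobase of the length column. The script was tested on simulated data. Alternatives were other factors, filters, runs, tests and libraries, and DESeq2 1.42.0.

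Libraries with neighbouring numbers deviated together: the correlation of their deviations from the group means over 10502 features was 0.27 for L222 with L224, 0.37 for L355 with L357 and 0.31 for L393 with L395, and below 0 for every other pair. As deviations from a group mean cancel within the group, a positive value for a pair pulls the others down, so values below 0 add no separate evidence. The labels do not say what a library number shares, so the fit with it as a block is an alternative. Counts of same-group libraries differed by more than sampling noise, with chi-square over its degrees of freedom at 7.92 to 25.1. The single-read and paired-end runs of the same library gave 24.3 to 33.6, so this value does not tell a repeated library from a separate one. Replicates are called biological in the series text, without naming litters.

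The comparison, its gene lists (40 lists, 1083 genes tested) and its tests were chosen with earlier results of these data known. Named genes are the sort genes and 3 markers, the 15 highest and 15 lowest features among those whose groups did not overlap and whose higher mean reached 10 CPM, hallmark genes of each list, its 3 largest members in the main and 2 in the other direction, and the 5 least changed features with at least 100 CPM on average. DP libraries entered the fit only to share its estimate of spread. Some named genes are not reported here. Promoters came from RefSeq, GRCm38.p6, matched by symbol or synonym.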

Additional observations from a re-analysis of the deposited data

How the results depend on the processing

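Over 20 alternatives, the count of features higher in Neuron ran from 4370 to 7368 and of those lower from 4659 to 9545; the low ends came from testing against a fold of 1.5 and moved both counts by over 1.5 times. Leaving out 1 library gave 6587 to 6851 higher and 6831 to 6992 lower. With the library number as a replicate block there were 7301 higher and 7637 lower, at least 2-fold 3753 and 4222, and no called gene named here lost its call. DESeq2 gave 6974 and 6934. Total-count library sizes gave 24 instead of 15 lower genes of cholesterol and fatty acid synthesis and 4 instead of 7 higher mitochondrial genes, and put Malat1 at -0.0019. Testing against a fold of 1.5 left 5 lower cholesterol genes, 6 lower immediate early genes and 3 higher mitochondrial genes. A filter at 1 CPM in 3 libraries left 7 lower endothelial and 3 lower microglial genes, and either run alone left 8 microglial genes. Lower meningeal fibroblast genes numbered 13 with no filter, and 8 to 13 on leaving out a library (13 without PP library L222). Of 328 called named genes, 296 kept their call and direction in every alternative that tested them; the causes of the other changes were not tested.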

Other observations

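Immediate early genes, which cells switch on soon after stimulation, and heat shock genes did not move one way. Of 21 tested, 5 were higher in Neuron, 10 were lower and 6 did not pass, with a median log2 difference of -0.36 against -0.04 over all features. The share called (71.4%) was near the 75.3% of all features. Jun stood at 625, 760 and 816 CPM in PP and at 127, 159 and 134 CPM in Neuron (log2 -2.39 ± 0.13), and Arc at 24.4, 29.2 and 31.8 CPM and at 1.36, 1.63 and 1.98 CPM. Junb went the other way, from 3.22, 2.43 and 1.87 CPM to 25.0, 23.9 and 21.4 CPM (log2 3.24 ± 0.29). Fos stood at 24.9, 22.7 and 19.5 CPM in PP and at 16.3, 16.4 and 17.4 CPM in Neuron and did not pass (log2 -0.42, adjusted p = 0.0587). It was called lower without PP library L393 (adjusted p = 0.0478), with only the 6 PP and Neuron libraries in the fit (0.00328) and with the library number as a block (0.0318). Fos was also called lower with upper-quartile factors (0.0207), total-count library sizes (0.0034), no filter beyond 1 read (0.0334) and paired-end counts alone (0.0206). Of the heat shock genes, Hspa1a was at 0.283 to 0.833 CPM over the 6 libraries and did not pass (adjusted p = 0.103). It was called lower without PP library L222 (0.0278), without L222 and L224 together (0.0403) and with total-count library sizes (0.0231).

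Of 33 genes of cholesterol and fatty acid synthesis, 9 were higher, 15 were lower and 9 did not pass, and the share called (72.7%) was near the 75.3% of all features. Srebf1, a regulator of fatty acid synthesis, was lower by log2 -1.87.

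Of 13 mitochondrially encoded genes, 7 were higher, 1 was lower and 5 did not pass. The share called was 61.5%, against 75.3% of all features. The count of higher genes was 10 without PP library L355 and 9 with the library number as a block. The count of lower genes was 2 with that block, with total-count library sizes or with single reads alone, and 0 in the test against a fold of 1.5. Mt-Cytb stood at 2259, 2426 and 2361 CPM in PP and at 3752, 3913 and 3978 CPM in Neuron, and mt-Co1 at 2799, 2709 and 2549 CPM and at 3980, 3772 and 3832 CPM. The count tables list mt-Co3 and mt-Atp6 at 0.859 to 3.11 CPM, and neither passed (adjusted p = 0.144 and 0.0711). Without PP library L355 both were called higher (mt-Co3 0.0305, mt-Atp6 0.00276), and mt-Atp6 also was without Neuron library L395 (0.04), with DESeq2 (0.0463), with paired-end counts alone (0.047), with no filter (0.0475) and with the library number as a block (0.0255).

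Some striatal and ventral genes differed among libraries of a group. Isl1 stood at 11.6, 1.83 and 0.258 CPM in Neuron and at 0.564, 0.0854 and 0.0205 CPM in PP, and Ebf1, the more abundant of its 2 entries, at 19.9, 5.30 and 5.15 CPM in Neuron. Dlx1 stood at 22.9, 8.09 and 1.68 CPM in PP and at 101, 86.7 and 80.2 CPM in Neuron. In each case the highest library of the group was L222 or L224, which carry neighbouring numbers.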
